A study of Mus musculus with 40 samples.

Results

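The promoters described here carried an H3K4me3 peak in every K27M oligodendrocyte precursor cell (OPC) culture of one brain region and in no K27M culture of the other. K27M cultures derived from the dorsal telencephalon (cortex, corpus callosum and hippocampus, which the labels call cortex; cultures 59, 60 and 61) were set against K27M cultures derived from the brainstem (cultures 59 and 61). Of 125977 autosomal promoters of 51229 genes, 120 promoters of 73 genes were telencephalon-only, 0.0953% of those examined, and 81 promoters of 58 genes were brainstem-only, 0.0643%. A promoter here is the stretch from 2000 bp upstream to 1000 bp downstream of an annotated transcript start, and it has a peak when at least 1 bp of a peak lies in it. Windows of neighbouring starts overlap, so that the members form 56 telencephalon-only and 46 brainstem-only regions. Peak presence chose these promoters, and their H3K4me3 values in the K27M cultures are therefore given as a description, without a test.

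All cultures came from litters with an hGFAP-Cre transgene, written AMGFAP-Cre in the labels, and the H3-3a-LSL-K27M conditional knock-in allele, in which Cre removes a stop cassette so that H3.3 K27M is made from its own locus. Cre is driven by the human GFAP promoter in neural stem and progenitor cells, so that their progeny carry the mutation. The K27M cultures are from pups with both alleles and the control cultures from littermates, of both sexes, and tissue of pups at postnatal days 5 to 7 was pooled by region and genotype, so a culture is a pool of animals. OPCs were isolated with an antibody against PDGFRa after endothelial cells and microglia had been depleted on a lectin, and were grown in proliferation medium with forskolin, CNTF, neurotrophin-3 and PDGF, without differentiation. The series also holds H3K4me3 libraries of 3 control telencephalon and 2 control brainstem cultures and H3K27me3 libraries of all these cultures, which the choice of members did not use. Of the OPC markers, 23 of 24 had a promoter with an H3K4me3 peak in every K27M culture, against 1 of 18 microglia, 3 of 14 endothelial and 5 of 17 mural and fibroblast markers. The same was true of 14 of 20 astrocyte and 16 of 22 neuron markers. No astrocyte, neuron, microglia, endothelial or mural marker was among the region-only genes. Only 0.142% of all genes were telencephalon-only and 0.113% brainstem-only, so this absence says little.

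H3K4me3, trimethylation of lysine 4 of histone H3, marks the starts of active genes and of genes held ready for use, most of them rich in CpG. H3K27me3, laid down by Polycomb repressive complex 2, marks silenced genes, and promoters with both marks are called bivalent. H3.3 K27M inhibits this complex and lowers H3K27me3 over much of the genome. Along the neural tube, position is written in homeobox and other transcription factors: Emx2, Six3 and their relatives specify the forebrain, whereas *Hox* genes, in 4 clusters, are used from the hindbrain towards the tail, with low numbers reaching furthest forward.

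The libraries were not equal. The K27M H3K4me3 lists held 22129, 28013 and 30826 peaks in telencephalon cultures 59, 60 and 61 and 29291 and 20961 in brainstem cultures 59 and 61. At promoters with a peak in every K27M culture, the median fold enrichment over input was 6.70, 34.3 and 34.4 in these telencephalon cultures and 21.4 and 12.8 in the brainstem. Telencephalon culture 59 stood apart as the weakest, also among the controls, where its median was 4.16 against 12.2 to 67.1. Promoters with a peak numbered 55007 ± 2190 (SD, n = 3) in the telencephalon and 54512 ± 2438 (SD, n = 2) in the brainstem (two-sided exact permutation test, p = 0.8, the smallest possible p being 0.1). Without telencephalon culture 59 the members would have been 583 and 81 promoters. Without brainstem culture 59 they would have been 820 and 104, without brainstem culture 61 they would have been 125 and 688, and without telencephalon culture 61 they would have been 124 and 123.

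Sequences upstream of a RefSeq start are shown for 4 members whose promoters had the marks compared below, *Nr2e1* and *Emx2* of the telencephalon-only set and *Hoxa2* and *Hoxb4* of the brainstem-only set. Each line gives the 250 bases before the RefSeq start on GRCm38.p6, 5′ to 3′ on the gene's strand, with CpG dinucleotides in capitals. For *Emx2* this start lies 318 bp downstream of the nearest annotated start used for the members. The *Emx2* stretch therefore lies after that start, inside the member window. *Nr2e1* lies on the minus strand (chr10:42583591-42583840), *Emx2* on the plus strand (chr19:59458440-59458689), *Hoxa2* on the minus strand (chr6:52164832-52165081) and *Hoxb4* on the plus strand (chr11:96318017-96318266).
Nr2e1: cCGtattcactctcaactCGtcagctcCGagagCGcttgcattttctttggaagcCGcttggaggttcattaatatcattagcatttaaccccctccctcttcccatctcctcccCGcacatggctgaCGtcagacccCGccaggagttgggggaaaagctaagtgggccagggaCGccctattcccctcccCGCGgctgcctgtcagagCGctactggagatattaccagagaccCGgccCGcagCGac
Emx2: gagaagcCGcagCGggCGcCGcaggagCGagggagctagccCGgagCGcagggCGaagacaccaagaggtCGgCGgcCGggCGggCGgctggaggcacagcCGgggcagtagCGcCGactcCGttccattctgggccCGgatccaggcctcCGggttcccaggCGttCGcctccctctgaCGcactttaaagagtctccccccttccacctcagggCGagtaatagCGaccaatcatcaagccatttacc
Hoxa2: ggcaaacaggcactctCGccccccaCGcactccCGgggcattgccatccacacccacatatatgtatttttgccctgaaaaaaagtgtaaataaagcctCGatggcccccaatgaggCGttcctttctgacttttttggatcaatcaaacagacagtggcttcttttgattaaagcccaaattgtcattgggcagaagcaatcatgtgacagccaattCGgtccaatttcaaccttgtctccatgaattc
Hoxb4: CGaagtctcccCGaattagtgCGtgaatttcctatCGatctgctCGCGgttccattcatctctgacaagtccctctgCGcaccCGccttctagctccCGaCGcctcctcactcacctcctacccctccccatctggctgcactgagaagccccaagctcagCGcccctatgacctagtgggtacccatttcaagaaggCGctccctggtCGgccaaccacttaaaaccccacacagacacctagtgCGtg
They hold 15, 24, 6 and 14 CpG. Of the 131 member genes, 57 have an entry in this RefSeq set.

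Counted over 1000 bp centred on the start, members were of intermediate CpG content, with a median of 2.75 CpG per 100 bp at telencephalon-only and 3.00 at brainstem-only promoters. Promoters with a peak in every K27M culture had a median of 6.10, those with a peak in none 1.10 and all autosomal promoters 1.90. Of the promoters, 56.7% and 59.3% belonged to protein-coding genes, against 90.6% of those with a peak in every culture and 71.7% of all. Among the 73 telencephalon-only genes, 36 were protein-coding, 8 lincRNAs and 7 antisense RNAs, and among the 58 brainstem-only genes 31 were protein-coding and 12 antisense RNAs.

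In telencephalon-derived K27M OPCs, forebrain transcription factors, *Emx2* and *Nr2e1* among them, were at the top of the telencephalon-only genes when ranked by the lowest fold over the 3 cultures. In cultures 60 and 61 taken alone *Mbd3*, with 57.2 and 36.8, was higher than both. Of 42 autosomal forebrain patterning factors, 6 had a telencephalon-only promoter (among them *Emx2*, *Nr2e1*, *Six3*, *Fezf2* and *Dmrta1*) and none had a brainstem-only one, where 0.142% of all genes were telencephalon-only. In all, 19 of the 42, *Dmrta1* among them, had a promoter with a peak in every K27M culture and 4 had no peak in any. None of 39 *Hox* genes, 6 Iroquois genes or 64 midbrain and hindbrain patterning factors was telencephalon-only.

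At *Nr2e1*, an orphan nuclear receptor that maintains neural stem cells, the fold enrichment was 8.00, 27.4 and 35.1 in telencephalon cultures 59, 60 and 61, and 3 of its 4 promoters were members with these same values. The control and H3K27me3 values given for it are of the window chr10:42579346-42582345, while the sequence printed above lies at another member start. The nearest H3K4me3 peak of a K27M brainstem culture lay 9331 bp away. In bulk cultures a mark in fewer cells and a weaker mark in every cell cannot be told apart, here and at the genes that follow. The windows of *Ostm1*, a lysosomal membrane protein encoded next to *Nr2e1* on the opposite strand, covered the same peaks and gave the same values. *Ostm1* had another promoter with a peak in every K27M culture of both regions. At *Emx2*, a homeobox factor of the dorsal cortex, the values were 6.82, 37.0 and 36.3, shared with its antisense RNA *Emx2os*, and the nearest brainstem peak was 81987 bp away.

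The other forebrain factors had lower values. *Six3*, needed for the anterior forebrain and eye field, stood at 4.29, 17.7 and 6.72 in telencephalon cultures 59, 60 and 61. *Fezf2*, which specifies deep-layer projection neurons, stood at 2.69, 6.00 and 6.41, and *Dmrta1*, a doublesex-related factor of the cortical neuroepithelium, at 4.21, 3.11 and 3.65. *Dmrt2*, of the same family and on no list, had 3.15, 5.50 and 6.96. Telencephalon culture 59 gave the lowest value at each of these but *Dmrta1*. The other promoter of *Dmrta1* had peaks of 13.8 and 5.94 in K27M brainstem cultures 59 and 61.

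Outside the patterning factors the telencephalon-only promoters were mostly weak. Of the 15 protein-coding genes with the highest values and no brainstem peak at any promoter, *Pcdhb8* and *Pcdhgb4*, clustered protocadherins of cell adhesion that have near-identical neighbours, had 3.88, 8.61 and 4.07, and 3.36, 4.29 and 4.15. *Art3*, a member of the ADP-ribosyltransferase family, reached 3.46 to 5.72, the ferric reductase-related *Frrs1* 2.97 to 4.04, and *Fsbp* and *9330159F19Rik* 2.83 to 5.78. *Fbln2*, an extracellular matrix protein, had 2.65 to 7.91 and *Pkhd1l1* 2.43 to 8.40. A single OPC marker was among the members. At 1 of 13 promoters of *Sox6*, a SoxD factor that keeps OPCs undifferentiated, the values were 2.98, 3.55 and 4.40, while another promoter of *Sox6* had a peak in every K27M culture of both regions. For each gene the lowest fold over the telencephalon cultures had a median of 3.15 over the 73 genes (1.83 to 8.00), and 15 genes had at least 4.

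In brainstem-derived K27M OPCs, the *Hox* clusters held the largest share of the region-only genes. Of 39 *Hox* genes 15 had a brainstem-only promoter: *Hoxa2*, *Hoxa3*, *Hoxa6* and *Hoxa7*, *Hoxb2* to *Hoxb8*, *Hoxc4* and *Hoxc5*, and *Hoxd3* and *Hoxd4*. None was telencephalon-only. Over all genes 0.113% were brainstem-only. Another promoter of *Hoxa7* had a peak in every K27M culture, and 17 *Hox* genes had no peak in any K27M culture, among them every gene of the list with number 10 or above. Of 64 midbrain and hindbrain patterning factors, *Pax3* and *Tfap2b* were brainstem-only, as was *Trf* of 34 oligodendrocyte maturation genes.

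*Hoxa2*, which patterns the second branchial arch and the anterior hindbrain, had 29.0 and 16.7 in brainstem cultures 59 and 61 (chr6:52163832-52166831). In at least 1 of these cultures the summit of the peak lay outside the window, and the nearest telencephalon peak lay 4582 bp away. *5730596B20Rik*, a gene model of the same cluster, had 29.0 and 8.69. *Hoxb2* and *Hoxb3* of the anterior hindbrain had 24.9 and 9.04, and 20.5 and 9.32. *Hoxd3* had 20.6 and 7.67 and *Hoxb4* 20.7 and 7.74. Lower values lay at the posterior genes of the *Hoxb* cluster, with 14.8 and 6.68 at *Hoxb5*, 11.2 and 5.84 at *Hoxb6*, 11.5 and 6.63 at *Hoxb7* and 11.5 and 4.89 at *Hoxb8*. *Hoxc4* had 9.05 and 5.87 and *Hoxc5* 6.84 and 3.63. Neighbouring genes shared values and were not separate measurements, as with 24.1 and 4.35 at *Hoxa3*, *Hoxa6* and the gene model *Gm28308* and 13.0 and 5.02 at *Hoxd4* and *Gm28230*. *Hoxa7* had 9.84 and 4.07 at its member promoters. The nearest peak of a K27M telencephalon culture was 50429 bp or more from the members of the *Hoxb* and *Hoxc* clusters, but 1809 to 6146 bp from *Hoxa2*, *Hoxa3*, *Hoxa6* and *Hoxa7*, where other promoters of the cluster, such as those of *Hoxa4* and *Hoxa5*, had peaks in telencephalon cultures.

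**Figure D1:**
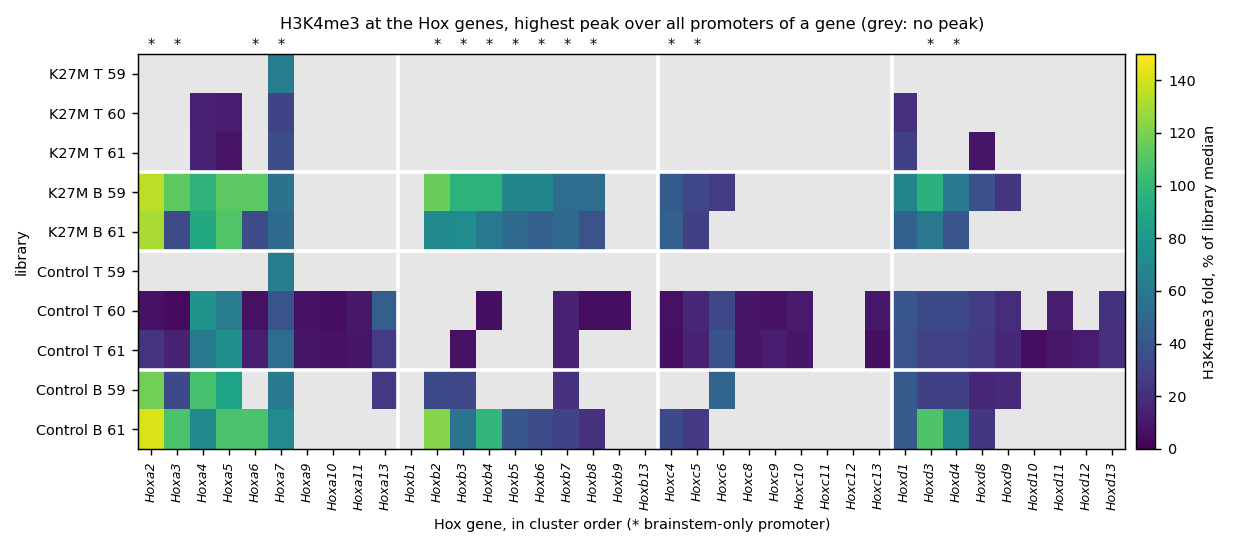
H3K4me3 at 38 *Hox* genes (columns, in cluster order) in 10 libraries (rows, T telencephalon, B brainstem). Colour gives the highest fold enrichment over all promoters of a gene as percent of that library's median fold at promoters with a peak in every K27M culture, and grey means no peak. Stars mark the 15 brainstem-only genes, whose *Hoxb*, *Hoxc* and *Hoxd* members are grey in all K27M telencephalon rows, whereas telencephalon controls 60 and 61 show low values at many of them.

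The region-only *Hox* promoters also covered 3 microRNA genes, whose mature products are given with the seed, bases 2 to 8, in capitals, from RefSeq (GRCm38.p6). *Mir10a* lies between *Hoxb4* and *Hoxb5*, *Mir10b* upstream of *Hoxd4* and *Mir615* within *Hoxc5*. The seed ACCCUGU is shared by the 5p arms of the miR-10 pair, which derive from duplicated *Hox* clusters.
mmu-miR-10a-5p: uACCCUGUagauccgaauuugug
mmu-miR-10b-5p: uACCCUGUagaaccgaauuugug
mmu-miR-615-3p: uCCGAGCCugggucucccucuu
The peaks over these windows are those of the neighbouring *Hox* promoters, with 20.7 and 7.74 at *Mir10a*, 13.0 and 5.02 at *Mir10b* and 6.84 and 3.63 at *Mir615* in brainstem cultures 59 and 61. In the telencephalon-only set, *Mir129-2*, a brain-enriched microRNA, and *Mir129b* at the same locus shared values of 3.46, 7.97 and 13.3.

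Beside the *Hox* genes, *Pax3*, a paired-box factor of the dorsal neural tube, had 17.6 and 13.5 in brainstem cultures 59 and 61 (chr1:78195839-78198838), and all 3 of its promoters were members. *Tfap2b*, an AP-2 factor of the dorsal hindbrain, had 7.07 and 4.30 at 2 of its 5 promoters, with a telencephalon peak 530 bp away. *Trf*, which encodes the iron carrier transferrin made by oligodendrocytes, had 4.09 and 5.41 at 1 of 9 promoters. Another promoter of *Trf* had a peak in at least 1 K27M telencephalon culture, and the nearest telencephalon peak lay 2552 bp from the member window. For each gene the lowest fold over the brainstem cultures had a median of 5.02 over the 58 genes (2.66 to 21.9), and 41 genes had at least 4. Culture 61 gave the lower value at every brainstem gene named here except *Trf*.

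Some members differed between the regions by the edge of a peak rather than by its presence. The 3 highest genes with another promoter that had a peak in every K27M culture were *Onecut1*, *Satb1* and *Fry* in the brainstem and *Ostm1*, *Mbd3* and *Stox2* in the telencephalon. At *Onecut1*, a cut-homeobox factor, *Satb1*, a chromatin organiser, and *Fry*, the values in brainstem cultures 59 and 61 were 21.8 and 15.8, 21.4 and 11.3, and 18.3 and 9.68, and a telencephalon peak ended 93, 67 and 33 bp from the window. *Mbd3*, a NuRD subunit, had 4.14, 57.2 and 36.8 in telencephalon cultures 59, 60 and 61 with a brainstem peak 26 bp away. *Stox2* had 3.72, 4.01 and 7.25 with the nearest brainstem peak 5120 bp away. *Mbd3*, *Onecut1*, *Satb1* and *Fry* were lost when the summit of the peak had to lie in the window. In all, 11 of 73 telencephalon-only and 13 of 58 brainstem-only genes had a peak of the other region within 1000 bp of their window.

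The threshold is met or missed by single libraries. Among promoters just inside, 12 telencephalon-only and 5 brainstem-only genes had a peak with a −log10 q under 3 in at least 1 of their cultures, the lowest being 1.33 and 1.91. Just outside were 705 promoters with a peak in all telencephalon cultures and in 1 brainstem culture, which was culture 59 for 700 of them. A further 511 lacked a peak in 1 telencephalon culture, which was culture 59 for 463. Among these was *Dmrt3*, a doublesex-related factor of the cortical hem and pallium, with 13.1 and 24.3 in telencephalon cultures 60 and 61. *Dlx5*, a homeobox factor of the ventral telencephalon, had 4.15 and 5.22 there. *Otx2*, a head organiser gene, had 4.50 and 3.29 in cultures 59 and 60 and no peak in 61. On the brainstem side, 71 promoters had a peak in both cultures and in 1 of the telencephalon, and 630 lacked a peak in 1 brainstem culture, which was culture 61 for 607. *Hoxc6* and *Hoxd9*, with 5.55 and 5.06 in brainstem culture 59 alone, were among the latter.

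**Figure D2:**
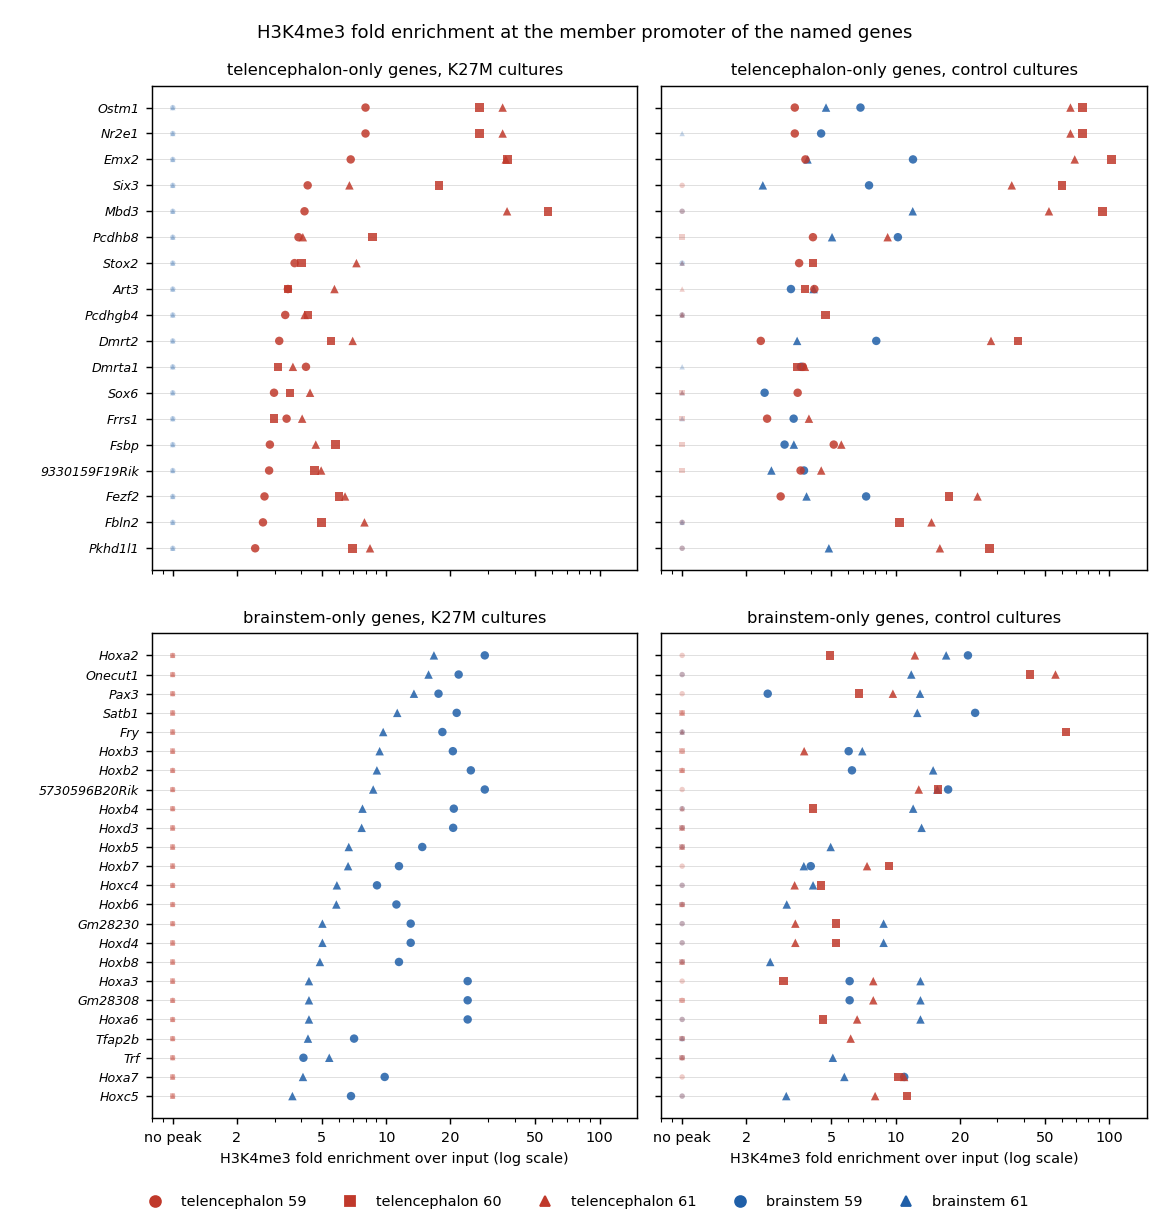
H3K4me3 fold enrichment over input (log scale) at the member promoter of 18 telencephalon-only (upper) and 24 brainstem-only genes (lower) in K27M (left) and control cultures (right). Each symbol is 1 culture, red for telencephalon and blue for brainstem, and pale symbols at the left edge are cultures without a peak. In the K27M panels the split is that of the rule, while in controls *Nr2e1*, at the window drawn, had a low value in brainstem culture 59 and no peak in 61, and most *Hox* promoters had peaks in telencephalon cultures as well.

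The control cultures, which the rule did not use, show whether the same promoters differ between the regions without K27M. In strict terms few did. Of the 120 telencephalon-only promoters, 5 (4.17%, 95% Wilson interval 1.79 to 9.38%) had a peak in every control telencephalon and no control brainstem culture, where 0.0286% of all promoters did. Of the 81 brainstem-only promoters, 12 (14.8%, 8.68 to 24.1%) had the matching control pattern, where 0.0595% of all promoters did. No member had the opposite pattern. These promoters belonged to 4 of 73 telencephalon-only genes (all genes 0.0488%) and 9 of 58 brainstem-only genes (all genes 0.117%). Among the telencephalon genes were *Emx2* by 1 of its promoters and *Tdrd7*, and the protein-coding brainstem genes were *Satb1* and *Hoxb2*. The Wilson intervals treat promoters as independent, but members with overlapping windows share peaks, so the intervals are too narrow.

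Peak presence hides differences in height. To compare libraries of unequal strength, each fold was also expressed as percent of the library's median fold at promoters with a peak in every K27M culture, with 0 for no peak. No background was subtracted, so that low folds score high in the weakest library. In control telencephalon culture 59 a fold of 3.37, at *Nr2e1*, was 81.0%. In control telencephalon culture 60 a fold of 2.98, at *Hoxa3*, was 4.44%. On this scale 29 of the 120 telencephalon-only promoters (24.2%) were higher in all control telencephalon cultures than in both control brainstem cultures, where 2.52% of all promoters were, and 5 were higher in the brainstem. For the brainstem-only promoters, 31 of 81 (38.3%) were higher in both control brainstem cultures than in all control telencephalon cultures, where 2.32% of all promoters were, and 0 were higher in the telencephalon. With folds as deposited, the counts were 15 of 120 (12.5%, all promoters 0.184%) and 20 of 81 (24.7%, all promoters 0.191%). Without control telencephalon culture 59 the telencephalon share was 51.7%, and without control brainstem culture 59 the brainstem share was 82.7%. Leaving out a culture eases the demand for every promoter, and the matching share of all promoters is not given here. Members whose windows overlap share peaks and are not independent.

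Among the forebrain factors, *Nr2e1* had scaled values of 81.0%, 112% and 123% in control telencephalon cultures 59, 60 and 61 and of 24.2% and 0% in control brainstem cultures 59 and 61 at that window. At its other member windows, which *Ostm1* overlaps, both brainstem cultures had a peak, with 37.0% and 38.7%. *Emx2* had 90.9%, 153% and 128% against 65.2% and 31.7%, so that both control brainstem cultures carried the peak and still lay below every telencephalon culture. On this scale the groups did not overlap at *Nr2e1* and *Emx2*, but they did at *Six3*, with 0%, 89.7% and 65.1% against 40.6% and 19.6%, and at *Fezf2*, with 69.6%, 26.5% and 45.0% against 39.3% and 31.4%. *Dmrt2* had 56.1%, 55.8% and 52.0% against 43.9% and 28.3%. With folds as deposited the groups overlapped at *Nr2e1*, *Emx2* and *Dmrt2* too, since telencephalon culture 59, with 3.37, 3.78 and 2.34, lay below brainstem culture 59, with 4.48, 12.1 and 8.12. With 3 against 2 cultures, no exact permutation p can go below 0.1.

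Among the brainstem genes, *Hoxa2* had scaled values of 118% and 142% in control brainstem cultures 59 and 61 against 0%, 7.36% and 22.9% in control telencephalon cultures 59, 60 and 61. *Hoxb2* had 33.8% and 123% against no peak in the telencephalon. *Hoxb3* had 32.6% and 57.3% against 0%, 0% and 6.93%, and *Hoxa3*, *Hoxa7* and *Hoxb7* likewise did not overlap between the regions on this scale. With folds as deposited the regions overlapped at these 3, with 6.09 and 13.1 against no peak, 2.98 and 7.86 at *Hoxa3*, 11.0 and 5.75 against no peak, 10.3 and 11.0 at *Hoxa7*, and 4.00 and 3.72 against no peak, 9.31 and 7.35 at *Hoxb7*. *Hoxa2*, *Hoxb2* and *Hoxb3* did not overlap on either scale. *Satb1*, where a K27M telencephalon peak ended 67 bp from the window, had 127% and 104% with no control telencephalon peak in it. Other *Hox* promoters lacked a peak in control brainstem culture 59. *Hoxb4*, *Hoxd3* and *Hoxb5* had 99.1%, 109% and 40.7% in culture 61 and 0% in culture 59, against 0% to 6.12% in the telencephalon. These *Hoxd3* values are of 1 of its 2 member promoters. Over all promoters of *Hoxd3*, the highest control folds were 5.29 and 13.2 in brainstem cultures 59 and 61. In telencephalon cultures 60 and 61 they were 22.4 and 15.9. *Hoxa6*, *Hoxd4*, *Hoxc4* and *Hoxc5*, also without a peak in control brainstem culture 59, had 107%, 72.0%, 33.7% and 25.2% in culture 61. Their highest control telencephalon values were 12.3%, 7.84%, 6.68% and 16.9%. With folds as deposited *Hoxc5* had 3.07 in control brainstem culture 61 against 11.3 and 8.02 in control telencephalon cultures 60 and 61. *Hoxb6* and *Hoxb8* had 25.3% and 21.2% in control brainstem culture 61 and no control telencephalon peak in that window. *Pax3* had 13.6% and 107% against 0%, 10.1% and 18.1%. *Tfap2b* had no peak in either control brainstem culture but folds of 3.10 and 6.16 in control telencephalon cultures 60 and 61, the former at 1 of its 2 member promoters, and *Onecut1* had 0% and 97.1% against 0%, 63.4% and 104%.

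**Figure D3:**
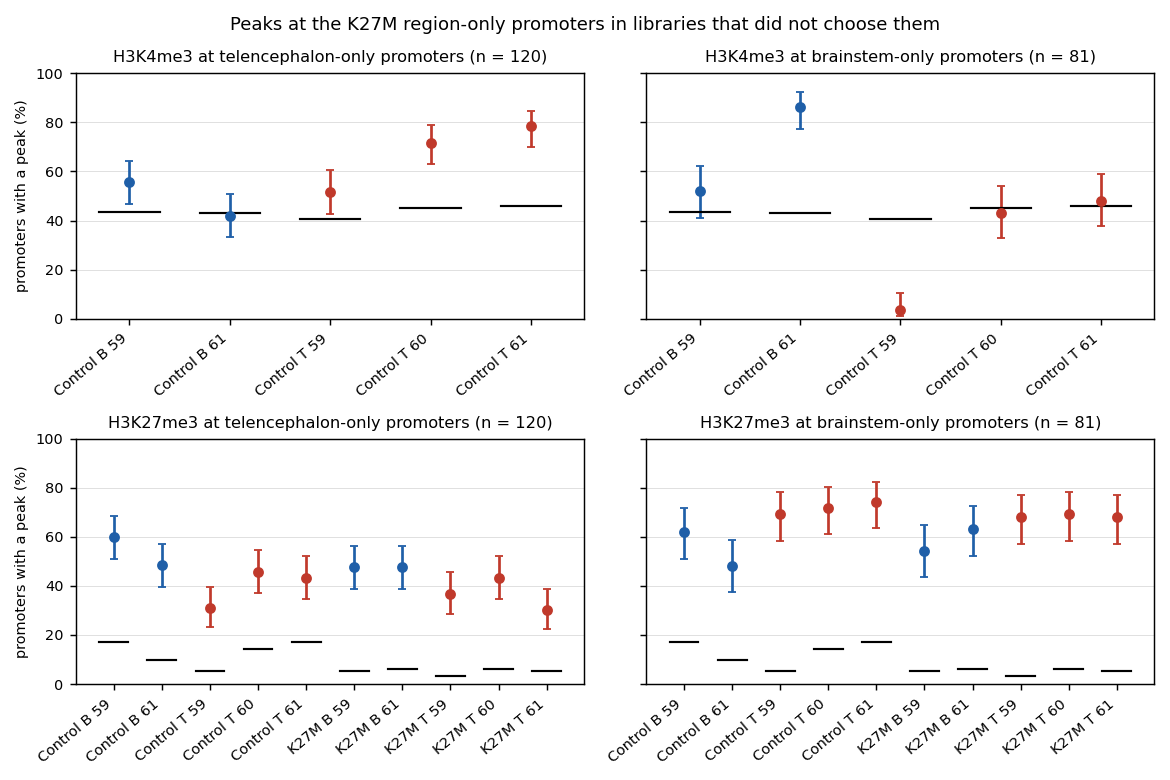
Share of the 120 telencephalon-only (left) and 81 brainstem-only promoters (right) with an H3K4me3 peak in the control libraries (upper) and an H3K27me3 peak in all libraries (lower), in percent, with 95% Wilson intervals over promoters. Red is telencephalon (T), blue brainstem (B), and black bars give the share of all autosomal promoters. Control telencephalon cultures 60 and 61 lie highest for the telencephalon-only set and control brainstem culture 61 for the brainstem-only set.

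Counted per library, 51.7%, 71.7% and 78.3% of the telencephalon-only promoters had an H3K4me3 peak in control telencephalon cultures 59, 60 and 61, and 55.8% and 41.7% in control brainstem cultures 59 and 61. Of the brainstem-only promoters, 51.9% and 86.4% had one in these brainstem cultures, and 3.70%, 43.2% and 48.1% in the telencephalon cultures. The regions overlapped in the telencephalon-only set, where brainstem culture 59 lay above telencephalon culture 59, and did not overlap in the brainstem-only set. Of all promoters, 40.6% to 45.9% had a peak. Peaks in all 5 control cultures were found at 16 of 120 telencephalon-only promoters and at 0 of 81 brainstem-only promoters, where 50159 of all 125977 promoters had them.

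H3K27me3, which the rule did not use, was frequent at the members. In the K27M cultures, 30.0% to 43.3% of the telencephalon-only promoters had an H3K27me3 peak in the telencephalon and 47.5% in each brainstem culture, and of the brainstem-only promoters 67.9% to 69.1% had one in the telencephalon and 54.3% and 63.0% in the brainstem. Of all promoters, 3.41% to 6.31% had one in these libraries. Telencephalon culture 59 was the weakest of them, with a highest fold of 11.7 against 30.9 to 38.7 in the others. H3K27me3 folds were not scaled for this. In every K27M culture of both regions, 36 of 120 and 44 of 81 promoters had the mark. Peaks of H3K27me3 are broad, and several members of a cluster lie under 1 of them.

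The mark was higher in the region without H3K4me3 at the strongest forebrain genes. In K27M cultures, 31 of the 120 telencephalon-only promoters (25.8%), of 14 genes, had a higher H3K27me3 fold in both brainstem cultures than in every telencephalon culture, where 1.29% of all promoters did, and 0 had the opposite. *Emx2* had folds of 26.1 and 33.8 in the brainstem (cultures 59 and 61) against no peak, 5.57 and no peak in the telencephalon (cultures 59, 60 and 61), and *Nr2e1* had 24.7 and 30.9 with no peak in any telencephalon culture. In controls the same was seen at 19 of 120 promoters (15.8%, all promoters 0.972%), of 9 genes. *Nr2e1* had 6.53 and 6.26 in the control brainstem against no peak, 2.50 and 2.46 in the control telencephalon. *Emx2* had 7.74 and 8.97 against no peak, 2.82 and no peak.

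*Six3*, *Fezf2* and *Dmrt2* carried H3K27me3 in all 10 cultures. At *Six3* the K27M values were 6.48, 20.6 and 27.7 in telencephalon cultures 59, 60 and 61 and 24.9 and 29.0 in the brainstem, with overlap. At *Fezf2* they were 7.99, 18.8 and 18.6 against 24.6 and 27.4, without overlap. H3K27me3 was not called at the member promoters of *Dmrta1*, *Sox6*, *Pcdhb8*, *Pcdhgb4*, *Frrs1* and *Fsbp* in any culture.

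On the brainstem side the counts in this order were smaller, but so were the shares of all promoters. Of the 81 promoters, 4 (4.94%, all promoters 0.106%) had higher H3K27me3 in every K27M telencephalon culture than in both K27M brainstem cultures, and 11 (13.6%, all promoters 0.183%) in controls, with 0 in the opposite direction in either. *Pax3* had 9.79, 23.0 and 25.2 in K27M telencephalon cultures 59, 60 and 61 and no peak in the K27M brainstem, whereas control brainstem culture 59 had 8.93. *Hoxa2* had 5.18, 19.6 and 11.6 in control telencephalon and no peak in control brainstem cultures, but in K27M brainstem culture 61 a peak of 27.3 lay over it, against 11.0, 27.2 and 31.8 in the K27M telencephalon. *Hoxb2* had 2.81 and 21.3 in K27M brainstem cultures 59 and 61 against 9.51, 27.2 and 30.3. From *Hoxb4* to *Hoxb8* a single broad peak of 18.7 and 21.3 covered the brainstem cultures, and *Hoxc4* had 24.3 and 28.2. These *Hox* promoters thus had H3K4me3 and H3K27me3 peaks in the same K27M brainstem cultures. Whether both marks lay on the same alleles or in different cells cannot be told apart in bulk cultures.

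**Figure D4:**
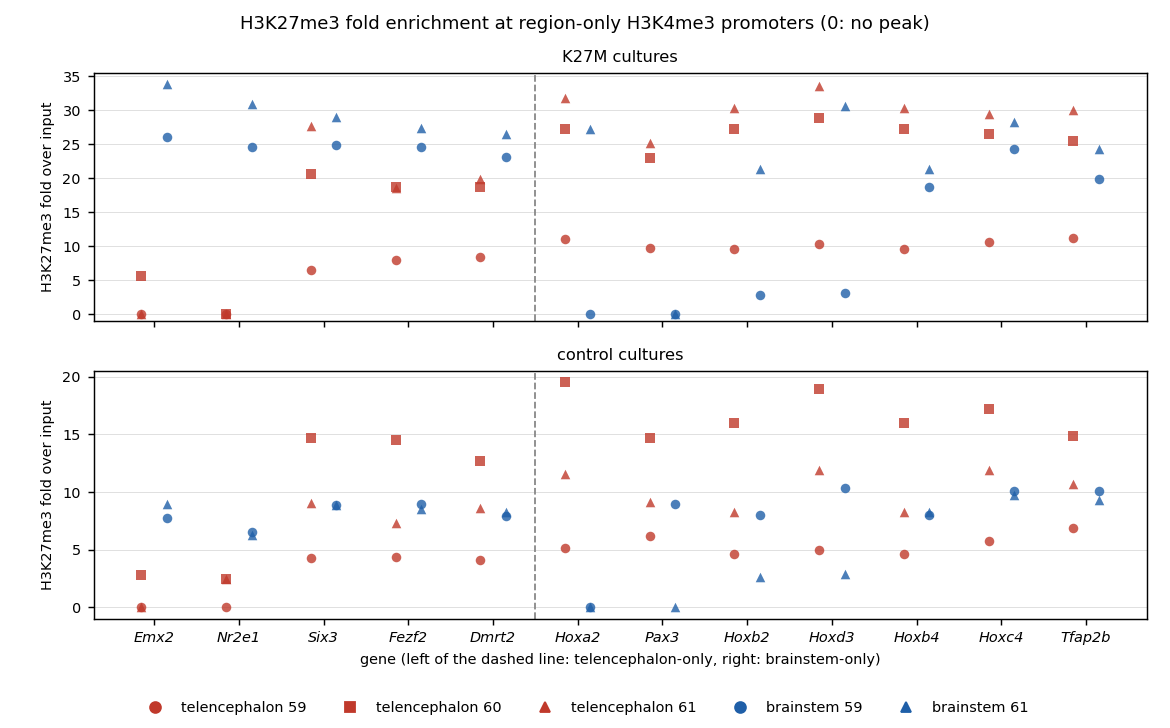
H3K27me3 fold enrichment over input at 5 telencephalon-only and 7 brainstem-only genes in K27M (upper) and control cultures (lower), with 0 for no peak. Each symbol is 1 culture, red for telencephalon and blue for brainstem. At *Emx2* and *Nr2e1* the brainstem cultures lie above all telencephalon cultures in both panels, and from *Hoxb4* rightwards both regions carry the mark.

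Other pathways gave no region-only gene. None of 53 Wnt, 54 BMP and TGF-beta, 25 Notch, 39 hedgehog and FGF and 54 axon guidance genes on autosomes was telencephalon-only or brainstem-only, nor was any of 16 cyclin-dependent kinase inhibitors and oncofetal genes. Over all genes only 0.142% were telencephalon-only and 0.113% brainstem-only, so absence from lists of this size says little about these pathways. Most of the listed genes, 41, 47, 21, 29, 48 and 12, had a promoter with an H3K4me3 peak in every K27M culture. All 6 Iroquois genes had a peak in some K27M culture, and 5 had a promoter with one in every culture.

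**Figure D5:**
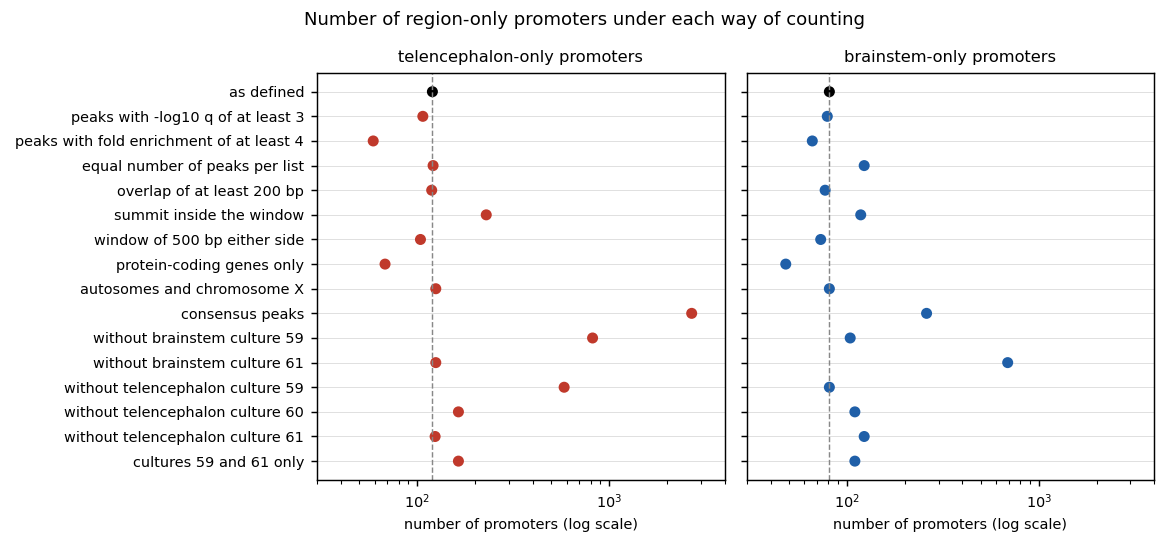
Number of telencephalon-only (left) and brainstem-only promoters (right) in K27M cultures under each way of counting (log scale), with the count as defined in black and on the dashed line. The counts of 120 and 81 rose to 820 and 688 without brainstem culture 59 and without brainstem culture 61.

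Over 7 other definitions of a peak or window, 11 of 73 telencephalon-only genes were kept by each, among them *Emx2*, *Nr2e1* and *Six3*, and 11 of 58 brainstem-only genes, among them *Pax3*, *Hoxb3*, *Hoxb4*, *Hoxb5*, *Hoxb7*, *Hoxd3*, *Hoxd4* and *Hoxa7*. *Hoxa2*, *Hoxa3*, *Hoxb2*, *Hoxb6*, *Hoxb8* and *Hoxc4* were lost by 1 of the 7, which asks that the summit of the peak lie in the window. *Fezf2*, *Dmrt2*, *Dmrta1* and *Sox6* were lost when a peak had to reach a fold of 4.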

How the data were processed

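The material was lists of ChIP-seq peaks of H3K4me3 and H3K27me3 from K27M and control OPC cultures. The authors trimmed reads with Trim Galore (0.6.7), aligned them to mm10 with BWA (0.7.17-r1188), took out blacklisted regions and ran MACS2 (2.2.7.1) on every library separately with the matching input, in narrow mode for H3K4me3 and broad mode for H3K27me3. Cultures were thus never merged, and the added Drosophila chromatin played no part in peak calling. The deposited lists give per peak a ratio, the fold enrichment over input, the −log10 p and −log10 q, and a score, which was not used. No read counts were used, so the depth at a promoter is not known and signal below the caller's threshold was not seen. A weaker library yields lower folds and fewer peaks.

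Promoters were the distinct transcript starts of GENCODE M21 on GRCm38, the assembly of mm10, on 19 autosomes. The highest fold of a peak in the window was taken, in Python 3.11.15 with pandas 2.3.3 and scipy 1.17.1. The interval functions were checked on simulated data. Members, gene lists and the naming rule were chosen with earlier results of these data known. Named are list genes with a member promoter, per direction the 15 protein-coding genes with the highest lowest-culture fold and no other-region peak at any promoter, and the 3 highest with another promoter that had a peak in every culture. *Dmrt3*, *Dlx5*, *Otx2*, *Hoxc6*, *Hoxd9*, the genes in counts and those of the closing section were named after their values were seen. Folds scaled to the library median, and their order in the controls, were added after the data were seen. Control and K27M cultures carry the same numbers, and same-numbered cultures of the 2 regions were not treated as paired. Peak thresholds, equal peak numbers, overlap, summit, window, biotype, chromosome X, consensus peaks and each culture left out were tried as alternatives. Wilson intervals cover counting of promoters only. Some genes are counted in the totals but not reported here by name.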

Additional observations from a re-analysis of the deposited data

How the results depend on the processing

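The number of telencephalon-only promoters, 120, became 59 with peaks of at least 4-fold enrichment, 229 with the summit in the window, 68 for protein-coding genes and 2693 with consensus peaks. The 81 brainstem-only promoters became 123 with equal peak numbers per list, 48 for protein-coding genes and 260 with consensus peaks. Leaving out 1 culture gave 124 (telencephalon 61) to 820 (brainstem 59) telencephalon-only promoters, with 583 without telencephalon 59. It gave 81 (telencephalon 59) to 688 (brainstem 61) brainstem-only promoters, with 123 without telencephalon 61. The share with the same control pattern, 4.17% for telencephalon-only promoters, became 15.3% with peaks of at least 4-fold, 10.7% with equal peak numbers and 42.5% with consensus peaks, and ranged from 4.27% to 29.0% with 1 culture left out, the latter without telencephalon 59. For brainstem-only promoters the 14.8% became 4.24% with the summit in the window and 6.25% for protein-coding genes, and ranged from 5.23% (without brainstem 61) to 27.9% (without brainstem 59). The shares with the higher scaled control fold, 24.2% and 38.3%, became 12.5% and 24.7% with folds not scaled. With 1 control culture left out they ranged from 25.0% to 51.7% (without telencephalon 59) and from 38.3% to 82.7% (without brainstem 59). For the changed peak definitions and left-out cultures no share of all promoters is given. Such shares cannot be read against those of the definition used above. The cause of these changes was not tested.

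Whether the numbers 59 and 61 pair the K27M cultures across regions is not known from the labels. The deviations of same-numbered cultures correlated at -0.473 and -0.386 across promoters, and with 2 brainstem cultures the other number gives the opposite values by construction, so the sign shows nothing about shared litters. With cultures 59 and 61 alone as a replicate block, which leaves out telencephalon 60, there were 164 and 110 promoters, the shares with the same control pattern were 4.27% and 11.8%, and those with the higher scaled fold 25.8% and 38.3%. Peaks are calls at a threshold, so a promoter without a peak may hold signal too weak to be called in that library.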

Other observations

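In the control cultures, 36 promoters of 25 genes were telencephalon-only and 75 promoters of 60 genes brainstem-only by the same definition, and the promoters shared with the K27M sets were 13.9% and 16.0% of these. Many of the brainstem genes, such as *Alg2* and *Zfp445*, also had peaks in K27M telencephalon cultures. The control brainstem values of *Alg2*, an enzyme of protein glycosylation, were 19.6 and 16.2 in cultures 59 and 61.

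At the posterior ends of the *Hox* clusters, some genes had an H3K4me3 peak only in control telencephalon cultures 60 and 61. These were *Hoxa9*, *Hoxa10*, *Hoxa11*, *Hoxc8*, *Hoxc9*, *Hoxc10*, *Hoxc13*, *Hoxd11* and *Hoxd13*. The folds ran from 3.41 (*Hoxc13*, culture 61) to 14.7 (*Hoxd13*, culture 60). Both libraries were the strongest for H3K4me3. At promoters with a peak in every K27M culture, their median folds were 67.1 and 53.8, against 4.16 to 34.4 in the other libraries. Calling of such low peaks in the weaker libraries was not tested, and no difference between regions or genotypes is read from them. H3K27me3 was called at all of these genes in every K27M and every control culture. On chromosome X, 5 further promoters were telencephalon-only and 0 brainstem-only. All chromosomes together hold 132758 promoters, of which 125977 are autosomal, and the autosomal shares were 0.0953% and 0.0643%. The counts on chromosome X are thus too small to be read as a difference between the regions.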
